A study of Mus musculus with 50 samples.

Results

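The postsynaptic density is the protein lattice that lies under the membrane of excitatory synapses and holds glutamate receptors opposite the site of transmitter release. The genes described here are 9 that encode its scaffolds, namely Dlg1, Dlg2, Dlg3, Dlg4, Shank1, Shank2, Shank3, Homer2 and Dlgap1, chosen by name and matched to the Ensembl identifiers of the count files through the GENCODE vM21 annotation. They are 9 of 55487 genes in the files, and all 9 were among the 16330 protein-coding genes tested.

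The Dlg genes encode membrane-associated guanylate kinases, whose PDZ domains bind the tails of NMDA receptors and of proteins that carry AMPA receptors, and Dlg4 encodes PSD-95, the best-known member of the group at mature excitatory synapses. Dlgap1 encodes a protein that binds the guanylate kinase domain of the Dlg proteins and links them to the Shank proteins, which form the deeper layer of the lattice. Homer proteins bind Shank and group I metabotropic glutamate receptors. In the cortex, excitatory synapses form mostly after birth and mature over the following weeks.

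RNA was measured in frontal cortex of wild-type (WT) mice and of Setd1a+/- mice, which carry one inactive copy (the tm1d allele, made by a knockout-first design) of the gene for a histone H3K4 methyltransferase. There were 5 libraries of each genotype at each of 5 ages, the embryonic ages E14 and E18 and the postnatal ages P7, P35 and P70, and each library came from 1 mouse. The strain is labelled C57BL/6NTac and the colony was of mixed C57BL/6NTac and C57BL/6J background. The methods describe male offspring of heterozygous fathers and wild-type mothers, name no treatment, and describe frontal brain in place of frontal cortex for the embryos. The values are raw counts of fragments per gene, and levels are given as RPKM, the counts per kilobase of exon scaled to the TMM-adjusted library size.

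Totals were 35507165 to 43907318 counts per library, and the 9 genes held 1213 to 37659 counts each, so the spread between mice rather than counting error limits the precision. Setd1a itself stood at 18.6 ± 1.1 RPKM in WT and 20.1 ± 1.3 RPKM in Setd1a+/- libraries at E14 (SD, n = 5 each), and its log2 fold change over all ages was 0.10 (SE 0.03, edgeR adjusted p = 0.0068). At P70 alone the log2 fold change was -0.03 (SE 0.05), the one age with a value below 0. The counts of the whole gene were thus not called lower in the libraries labelled Setd1a+/-, 52.3% of its exonic bases are shared with other annotated genes, and they do not check the genotype labels. WT replicate 5 at E14 and WT replicate 2 at E18 held at least 55644 counts of Xist, which is transcribed from the inactive X chromosome of females, against at most 27 in the other 48 libraries. WT replicate 2 at P7 had a summed level of 506 RPKM for 3 choroid plexus markers, against 0.137 to 0.601 RPKM in the 9 other libraries of that age. Levels, shares and ratios include these libraries, and some calls of a step or of genotype changed without them.

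In GRCm38, Dlg1 lies on chromosome 16 from 31663443 to 31875129, Dlg2 on chromosome 7 from 90476672 to 92449247, Dlg3 on chromosome X from 100767722 to 100818410 and Dlg4 on chromosome 11 from 70016942 to 70047522. Shank1 lies on chromosome 7 from 44310253 to 44360572, Shank2 on chromosome 7 from 144001928 to 144424494 and Shank3 on chromosome 15 from 89499623 to 89560261. Homer2 lies on the minus strand of chromosome 7 from 81600481 to 81707527, and Dlgap1 on chromosome 17 from 69969073 to 70821413. Counting was on exons of these genes without regard to strand. The exons of Dlg1, Dlg3, Dlg4 and Shank2 overlap those of no other annotated gene. The largest overlap among the others was 4.16% of the exonic bases of Homer2, shared with the antisense gene Gm44570.

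The RefSeq tables for GRCm38.p6 held 17 promoter windows of 300 bases, 250 before and 50 after a transcript start, for 7 of the 9 genes. Those of Dlg1, Dlgap1, Dlg2 and Homer2 are shown as examples of genes whose RNA did not all rise over the same steps. The window shown is the most upstream of those listed for the gene. They lie at chr16:31663193-31663492, chr17:69968823-69969122, chr7:91090536-91090835 and, on the minus strand, chr7:81706876-81707175, each read 5′ to 3′ with CpG dinucleotides in capitals.
Dlg1: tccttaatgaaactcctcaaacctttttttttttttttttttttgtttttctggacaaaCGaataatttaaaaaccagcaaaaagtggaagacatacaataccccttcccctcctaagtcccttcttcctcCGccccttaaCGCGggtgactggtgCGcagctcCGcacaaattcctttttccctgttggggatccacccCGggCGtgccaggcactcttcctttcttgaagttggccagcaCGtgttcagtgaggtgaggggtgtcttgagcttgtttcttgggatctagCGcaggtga
Dlgap1: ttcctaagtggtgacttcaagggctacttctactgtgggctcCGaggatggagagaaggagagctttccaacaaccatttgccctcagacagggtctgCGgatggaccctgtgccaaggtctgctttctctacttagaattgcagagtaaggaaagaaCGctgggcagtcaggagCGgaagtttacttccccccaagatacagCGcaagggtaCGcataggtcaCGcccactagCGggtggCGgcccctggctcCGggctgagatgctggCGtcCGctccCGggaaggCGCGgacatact
Dlg2: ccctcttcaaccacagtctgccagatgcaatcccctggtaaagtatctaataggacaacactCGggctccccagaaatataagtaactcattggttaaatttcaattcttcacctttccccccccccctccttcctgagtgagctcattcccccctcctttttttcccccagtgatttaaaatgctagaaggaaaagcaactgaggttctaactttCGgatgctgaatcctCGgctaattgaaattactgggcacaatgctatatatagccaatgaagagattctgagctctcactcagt
Homer2: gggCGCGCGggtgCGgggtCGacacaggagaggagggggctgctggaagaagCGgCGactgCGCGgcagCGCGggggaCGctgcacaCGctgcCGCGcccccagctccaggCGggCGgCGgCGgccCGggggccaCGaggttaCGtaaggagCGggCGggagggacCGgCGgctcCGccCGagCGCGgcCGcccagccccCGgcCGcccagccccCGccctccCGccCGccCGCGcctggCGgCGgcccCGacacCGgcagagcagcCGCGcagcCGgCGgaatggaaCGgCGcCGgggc
The window of Homer2 held 49 CpG dinucleotides, that of Dlgap1 15, that of Dlg1 10 and that of Dlg2 3, against a median of 7 over all 32851 windows. The motif GGGCGG, searched on both strands, occurred 8 times in the Homer2 window, once in that of Dlg1 and not in those of Dlgap1 and Dlg2, and was present in 35.7% of all windows. The motif TATAAA, present in 13.6% of all windows, occurred in none of the 4 windows shown. CACGTG, which is its own reverse complement, occurred once in the Dlg1 window and is present in 7.15% of all windows. Dlg1 has a further listed window, starting at 31663685, with 27 CpG dinucleotides. The Dlg2 window lies inside the gene, well downstream of its annotated start.

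Across development in WT cortex, all 9 scaffolds were higher at P70 than at E14, by quasi-likelihood tests in edgeR with p-values adjusted over all tested genes. Of the 16330 genes tested, 85.6% were called in this comparison, 42.8% higher and 42.9% lower. The rise was 12.8-fold for Dlgap1 (log2 fold change 3.68, SE 0.14, adjusted p = 1.19e-27), 5.65-fold for Dlg2 and 5.37-fold for Shank3. It was 1.62-fold for Homer2 (log2 fold change 0.69, SE 0.10, adjusted p = 2.28e-08). The median log2 fold change of the 9 genes was 1.56, against -0.002 over all genes tested. The genes did not rise at the same time, and the 4 steps between consecutive ages are therefore given in turn. In bulk tissue, a larger number of neurons and more RNA per neuron cannot be told apart. Nor can age be told apart from the change from embryonic frontal brain to postnatal frontal cortex. The summed level of 3 neuronal markers (Rbfox3, Snap25 and Syt1) rose with age as well, from 31.0 to 51.6 RPKM in WT at E14 to 565 to 655 RPKM at P70, and its part in the changes was not tested.

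**Figure D1:**
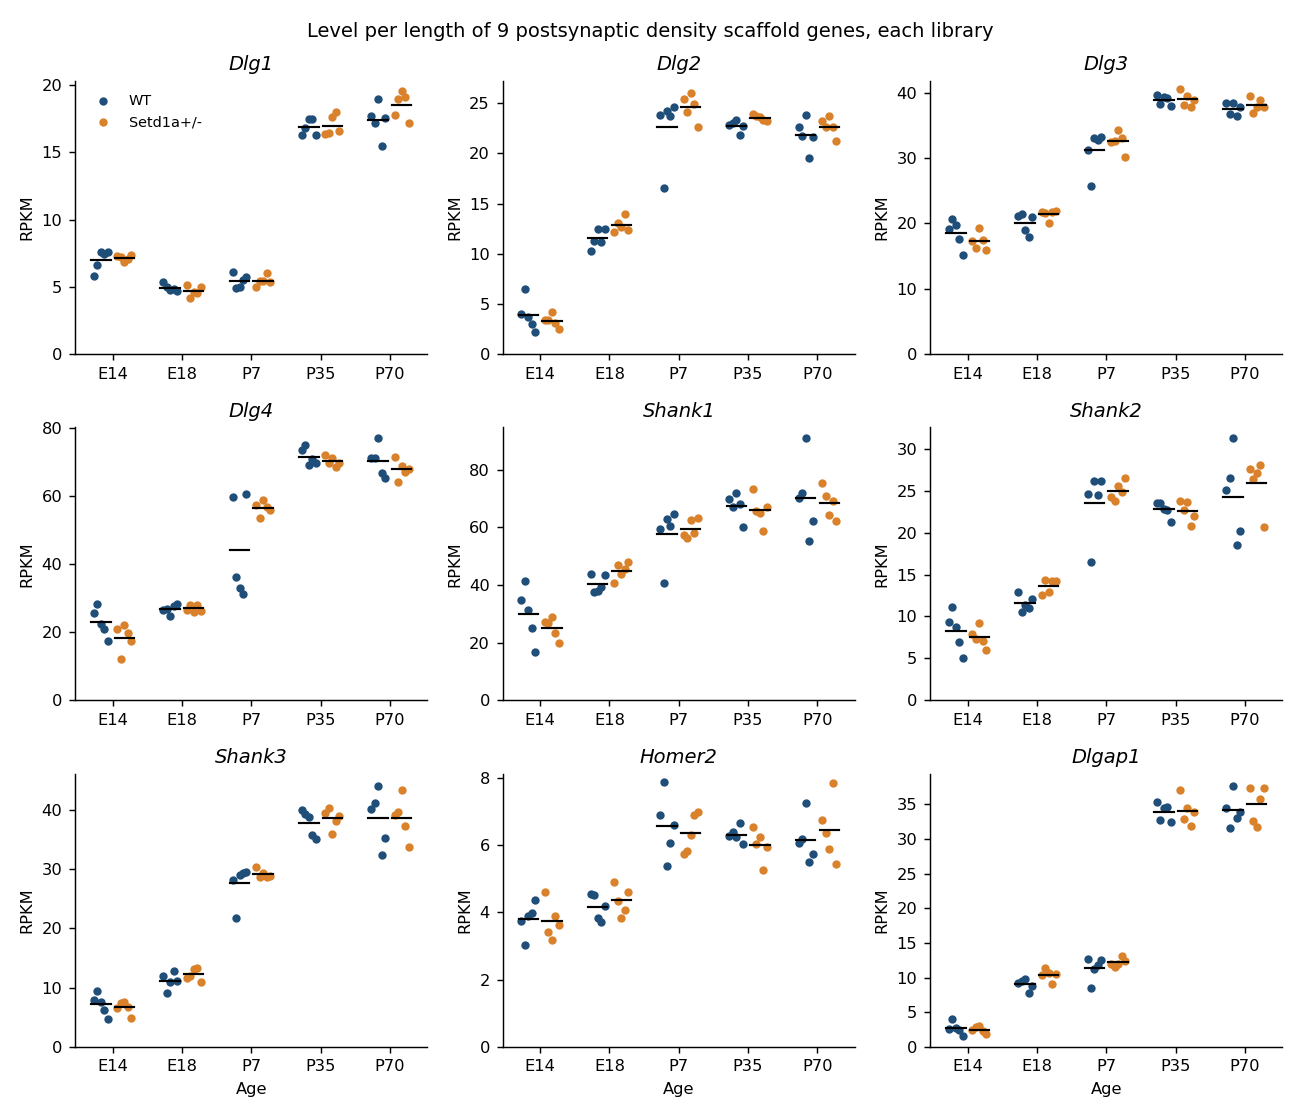
RPKM of each of the 9 scaffold genes (vertical axes, from 0) by age, with 1 point per library, WT in blue and Setd1a+/- in orange, and a black line at the mean of 5 libraries. Dlg1 and Dlgap1 step up between P7 and P35, Dlg2 and Shank2 have reached their late level by P7, and the WT libraries of Dlg4 at P7 split between 31.2 to 36.2 and 59.7 to 60.7 RPKM.

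The levels per length had an order that changed with age. At E14 in WT, Shank1 stood highest at 29.8 ± 9.4 RPKM (SD, n = 5), followed by Dlg4 at 23.0 ± 4.2 RPKM and Dlg3 at 18.5 ± 2.1 RPKM, and the intervals of mean ± SD of these neighbours overlapped. Dlgap1 stood lowest at 2.67 ± 0.90 RPKM, not apart from Homer2 at 3.80 ± 0.49 RPKM by the same measure. At P35, Dlg4 at 71.7 ± 2.5 RPKM and Shank1 at 67.4 ± 4.6 RPKM stood above the rest and overlapped each other. Dlg3 and Shank3 followed at 38.9 ± 0.7 and 37.8 ± 2.2 RPKM, again not apart. Shank2 and Dlg2 shared a mean of 22.8 RPKM, and Homer2 stood lowest at 6.31 ± 0.23 RPKM. The order of the top pair and of the lowest gene was the same at P70, where Dlg4 had 70.4 ± 4.5 RPKM, Shank1 70.1 ± 13.4 RPKM and Homer2 6.14 ± 0.67 RPKM.

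From E14 to E18, 6 of the 9 genes were called in WT, 5 of them higher and 1 lower, where 65.9% of all tested genes were called, 31.8% higher and 34.1% lower. Dlgap1 and Dlg2, which encodes PSD-93, rose most. Dlgap1 had 2.58, 4.08, 2.71, 2.38 and 1.6 RPKM in the 5 WT libraries at E14 and 9.19, 9.57, 9.8, 7.75 and 8.73 RPKM at E18. The groups did not overlap, and the log2 fold change was 1.75 (SE 0.13, adjusted p = 1.91e-15). Dlg2 had 2.24 to 6.43 RPKM at E14 and 10.3 to 12.5 RPKM at E18, with a log2 fold change of 1.57 (SE 0.14, adjusted p = 3.54e-13). The 3 Shank genes also rose, Shank3 by 0.64 (SE 0.11), Shank2 by 0.49 (SE 0.13) and Shank1 by 0.44 (SE 0.13) on the log2 scale. Dlg1, whose protein is found in epithelia and axons as well as at synapses, was the gene that fell, from 7.0 ± 0.78 to 4.92 ± 0.27 RPKM (SD, n = 5 each), a log2 fold change of -0.51 (SE 0.06, adjusted p = 2.58e-09). Dlg3 (0.12, SE 0.06, adjusted p = 0.0735), Dlg4 (0.23, SE 0.13, adjusted p = 0.118) and Homer2 (0.13, SE 0.10, adjusted p = 0.237) did not pass the test. Dlg3 and Dlg4 lay close to the threshold, and both passed with scaling by library size only (adjusted p = 0.0012 and 0.0354) and with a filter of 10 CPM in 5 libraries (adjusted p = 0.0069 and 0.0485). Dlg3 also passed without WT replicate 2 at P7 (adjusted p = 0.0421). Without the 2 libraries with Xist counts the 6 calls were kept, Dlgap1 with 1.59 (SE 0.12) and Shank1 with 0.31 (SE 0.12). Over the same step the summed level of 4 progenitor markers (Pax6, Hes5, Eomes and Mki67) in WT went from between 96.2 and 150.1 RPKM to between 37.5 and 64.0 RPKM. That of the 3 neuronal markers went from between 31.0 and 51.6 RPKM to between 68.7 and 78.5 RPKM. That of 3 astrocyte markers (Aqp4, Gfap and Aldh1l1) went from between 5.06 and 7.67 RPKM to between 16.5 and 22.3 RPKM. The part of these markers in the changes was not tested.

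In Setd1a+/- cortex the same step was called in all 9 genes, where 64.5% of all tested genes were called, 32% higher and 32.5% lower. It was higher in 8 of the 9, and Dlg1 was lower by a log2 fold change of -0.61 (SE 0.06, adjusted p = 2.38e-11). Dlg2 rose by 1.97 (SE 0.14) and Dlgap1 by 2.07 (SE 0.13) on the log2 scale. Dlg3, Dlg4 and Homer2 were called here and not in WT, with log2 fold changes of 0.31, 0.55 and 0.22, but the calls of Dlg3 and Dlg4 in WT were gained under the settings just given. That of Homer2 in Setd1a+/- (adjusted p = 0.0485) was lost under 38 of 61 alternatives, among them scaling by library size only (0.20, adjusted p = 0.0837). The difference between the steps of the 2 genotypes was itself tested and was not called for any of the 9 genes, with differences from -0.10 for Dlg1 to 0.40 for Shank1 and adjusted p of 0.284 to 0.819. Unadjusted p was under 0.05 for 3 of them and for 2283 of the 16330 tested genes. After adjustment, 1.13% of all tested genes were called, 0.0551% higher and 1.08% lower. Without the 2 libraries with Xist counts, 4 of the 9 were called for this difference, Dlg2 (0.53, SE 0.17, adjusted p = 0.0447), Dlg3 (0.28, SE 0.08, adjusted p = 0.0214), Shank1 (0.52, SE 0.17, adjusted p = 0.0430) and Dlgap1 (0.48, SE 0.16, adjusted p = 0.0454), where 8.74% of all tested genes were called, 4.12% higher and 4.62% lower. Without WT replicate 5 at E14 alone 3 were, Dlg2, Dlg3 and Shank1, against 7.64% of all tested genes, 3.66% higher and 3.98% lower. With WT replicate 2 at P7 left out beside the 2 libraries with Xist counts, 5 were called, Shank2 being added (0.48, SE 0.16, adjusted p = 0.0387), against 12% of all tested genes, 6.45% higher and 5.53% lower. WT replicate 5 at E14 had the lowest level of its group in 7 of the 9 genes, Dlg1 and Homer2 being the exceptions, and also the lowest neuronal marker sum of the 10 libraries of that age, 31.0 RPKM.

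From E18 to P7, all 9 genes rose in WT, where 67.3% of all tested genes were called, 33.9% higher and 33.4% lower. The dissection changed from frontal brain to frontal cortex between these ages, and age and dissection cannot be told apart in this step. Over this step in WT, the sum of the 3 neuronal markers went from between 68.7 and 78.5 RPKM to between 164.1 and 218.6 RPKM. That of 3 astrocyte markers (Aqp4, Gfap and Aldh1l1) went from between 16.5 and 22.3 RPKM to between 59.6 and 133.4 RPKM. The lowest neuronal and the highest astrocyte value at P7 were those of WT replicate 2. The part of these markers in the changes was not tested. Shank3, a scaffold of the deeper layer whose human counterpart is deleted in Phelan-McDermid syndrome, had 12.0, 9.12, 10.9, 12.8 and 11.1 RPKM at E18 and 28.2, 21.8, 29.0, 29.4 and 29.6 RPKM at P7. No library of one age reached the level of the other, and the log2 fold change was 1.30 (SE 0.11, adjusted p = 1.52e-13). Shank2 rose by 1.03 (SE 0.13, adjusted p = 5.96e-09) and Dlg2 by 0.97 (SE 0.14, adjusted p = 2.88e-08) on the log2 scale. Homer2 rose from 4.17 ± 0.38 to 6.57 ± 0.94 RPKM (SD, n = 5 each), the step that holds most of its change. The smallest change was that of Dlg1 (0.15, SE 0.06, adjusted p = 0.0377), a call that was lost on leaving out any of 7 single libraries, with an adjusted p of up to 0.196 without WT replicate 1 at P7, and with scaling by library size only (0.09, adjusted p = 0.248). That of Dlgap1 (0.34, SE 0.12, adjusted p = 0.0150) was lost without WT replicate 1 at P7 (adjusted p = 0.0523) or WT replicate 4 at E18 (adjusted p = 0.0565). In Setd1a+/- cortex, 8 of the 9 genes rose over this step, where 67.8% of all tested genes were called, 32.7% higher and 35% lower, and Dlgap1 had a log2 fold change of 0.23 (SE 0.12, adjusted p = 0.0912). Dlgap1 was called there under 7 of 61 alternatives, among them DESeq2 (0.27, adjusted p = 0.0427), a filter at 10 CPM in place of the default one (0.27, adjusted p = 0.0342) and leaving out the 2 libraries with Xist counts (0.23, adjusted p = 0.0457).

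From P7 to P35, 5 of the 9 genes rose in WT and none fell, where 67% of all tested genes were called, 32.6% higher and 34.3% lower. Over this step in WT, the sum of the 3 neuronal markers went from between 164.1 and 218.6 RPKM to between 529 and 571 RPKM. That of 3 microglia markers (C1qa, Cx3cr1 and Aif1) went from between 17.2 and 19.7 RPKM to between 43.6 and 51.0 RPKM. The part of these markers in the changes was not tested. Dlg1 and Dlgap1 had the largest rises. Dlg1 had 6.12, 4.94, 4.95, 5.49 and 5.74 RPKM at P7 and 16.3, 16.8, 17.5, 17.5 and 16.3 RPKM at P35, a 3.10-fold rise (log2 fold change 1.63, SE 0.06, adjusted p = 1.26e-25). The lowest library at P35 stood far above the highest at P7, and most of the rise of Dlg1, the one scaffold that fell before birth, thus came after P7. Dlgap1 had 12.7, 8.52, 11.2, 11.8 and 12.6 RPKM at P7 and 35.3, 32.7, 34.5, 34.6 and 32.4 RPKM at P35, a 2.99-fold rise (log2 fold change 1.58, SE 0.13, adjusted p = 4.52e-15). Dlg4 rose by 0.70 (SE 0.13, adjusted p = 6.26e-06), Shank3 by 0.45 (SE 0.11, adjusted p = 4.43e-04) and Dlg3 by 0.32 (SE 0.06, adjusted p = 9.67e-06) on the log2 scale. The value of Dlg4 was smaller, though still called, without the libraries at P7 in which it was low (below). Dlg2 (0.01, SE 0.13), Shank2 (-0.05, SE 0.13), Homer2 (-0.06, SE 0.10) and Shank1 (0.23, SE 0.13) did not pass the test, with adjusted p of 0.943, 0.754, 0.624 and 0.130. The same 5 genes rose in Setd1a+/- cortex, where 67.8% of all tested genes were called, 34.5% higher and 33.3% lower, Dlg1 by 1.64 (SE 0.06) and Dlgap1 by 1.48 (SE 0.12). The call of Dlg4 there (0.32, adjusted p = 0.0274), was lost with scaling by library size only (0.24, adjusted p = 0.0654) and without Setd1a+/- replicate 2 at P7 (0.30, adjusted p = 0.0543).

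From P35 to P70, none of the 9 genes was called in either genotype by edgeR, nor by limma-voom or DESeq2. Of all tested genes, edgeR called 1.06% in WT (0.533% higher, 0.527% lower) and 2.98% in Setd1a+/- (1.51% higher, 1.47% lower). None of the 9 had an unadjusted p under 0.05 by edgeR, where 1849 of the 16330 tested genes did in WT and 2639 in Setd1a+/-. The largest log2 fold change was 0.09 (SE 0.13) in WT and 0.20 (SE 0.13) in Setd1a+/-, both for Shank2. For the 3 steps after E18, the difference between the genotypes in a step was called for 0 of the 9 genes and 0% of all tested genes by edgeR. Among the scaffolds 1 value had an unadjusted p under 0.05, that of Dlg4 from P7 to P35 (-0.38, SE 0.18). Of the 16330 tested genes, 845, 398 and 233 had such a p in the 3 steps in order of age.

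**Figure D2:**
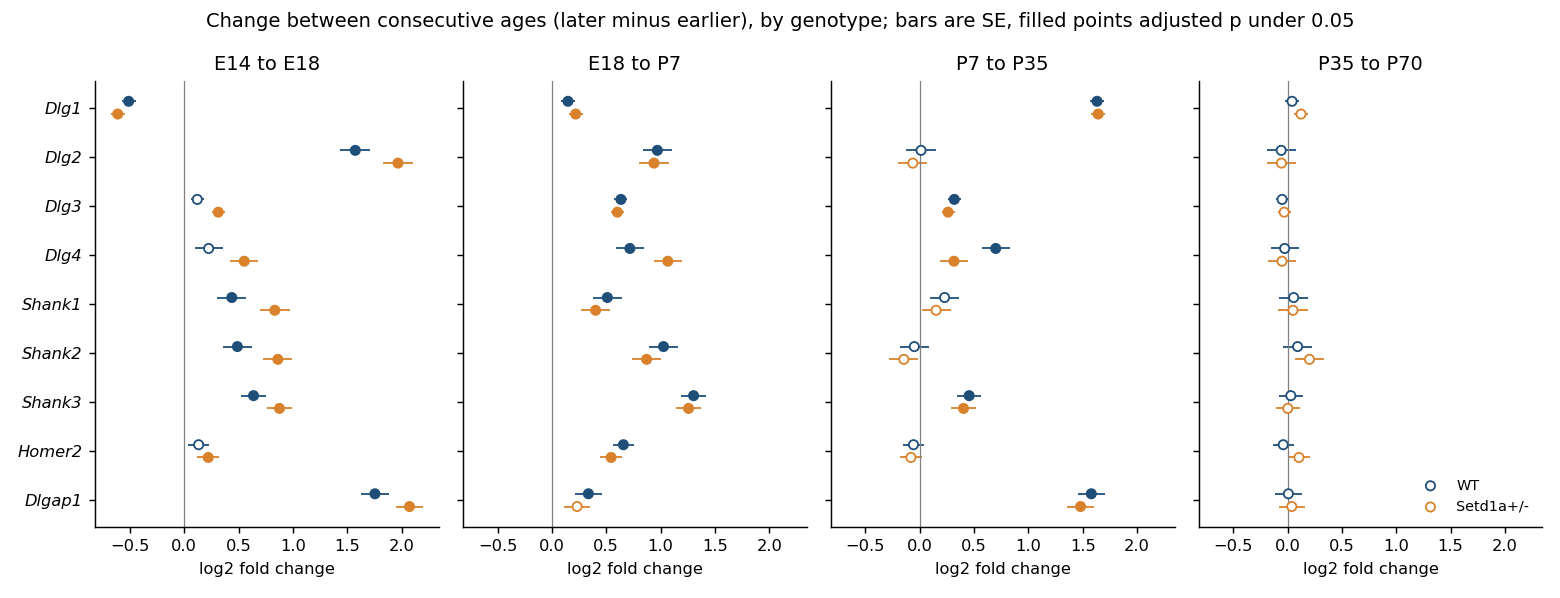
Log2 fold change of each scaffold gene between consecutive ages (horizontal axis, later minus earlier) in WT (blue) and Setd1a+/- (orange), with bars of 1 SE and filled points for an adjusted p under 0.05. Dlg2 and Dlgap1 have the largest values from E14 to E18, Shank3 from E18 to P7 in both genotypes, Dlg1 and Dlgap1 from P7 to P35, and all points are open from P35 to P70.

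Within the 2 families the make-up by level per length shifted with these steps. Of the summed RPKM of the 4 Dlg genes in WT, Dlg2 made up 7.20% ± 1.93 at E14, 18.2% ± 1.6 at E18 and 22.05% ± 3.11 at P7, and 15.2% ± 0.4 at P35 (SD, n = 5 each). The share of Dlg1 ran the other way, 13.7% ± 3.1 at E14, 5.34% ± 0.56 at P7 and 11.2% ± 0.4 at P35. Dlg3, the X-linked member, went from 35.4% ± 1.4 to 25.9% ± 0.5 between E14 and P35, while Dlg4 held the largest share at each age, 41.9% to 47.8%. Among the Shank genes, Shank1 went from 65.6% ± 1.4 at E14 to 52.8% ± 0.8 at P7 and 52.6% ± 1.3 at P70. Shank3 went from 16.1% ± 1.0 at E14 to 25.5% ± 1.3 at P7 and 29.5% ± 0.8 at P35. Shank2 stayed between 17.8% and 21.6% in the means of the 5 ages. The shares were not tested, and those of the Dlg family at P7 in WT include the 3 libraries in which Dlg4 was low (below).

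**Figure D3:**
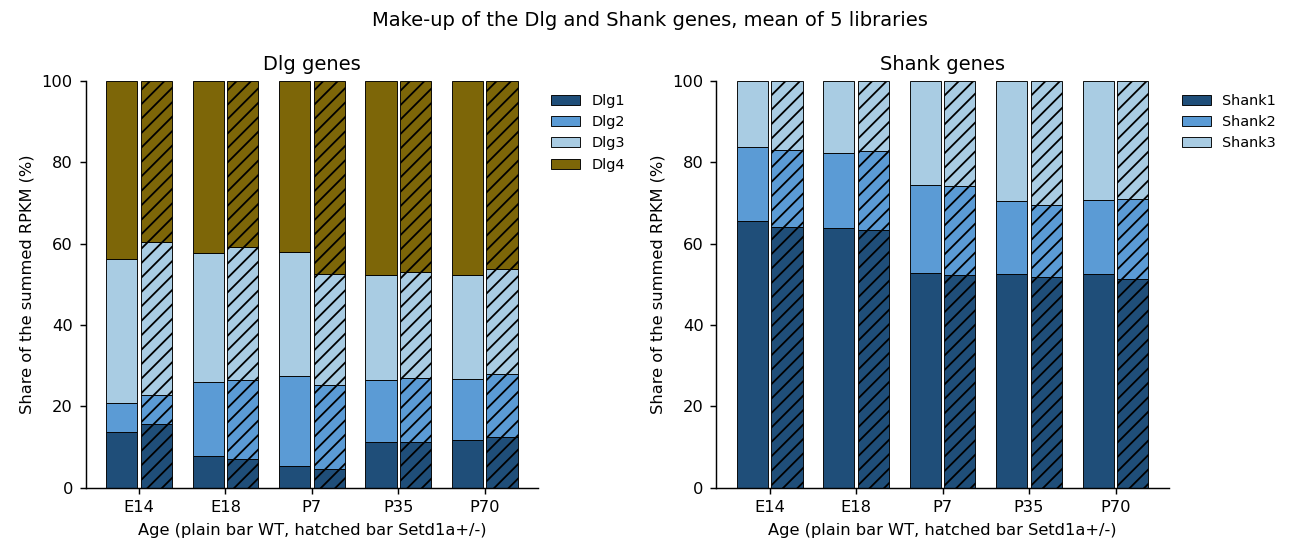
Share of each gene in the summed RPKM of the 4 Dlg genes (left) and the 3 Shank genes (right), in percent, by age, as the mean of 5 libraries, with plain bars for WT and hatched bars for Setd1a+/-. Dlg2 widens up to P7 and Dlg1 after it, and Shank3 goes from 16.1% at E14 to 29.5% at P35 in WT.

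No scaffold was called between Setd1a+/- and WT cortex with age as a covariate, by edgeR, limma-voom or DESeq2. By edgeR, 4.43% of all tested genes were called, 0.68% higher and 3.75% lower. None of the 9 had an unadjusted p under 0.05 by edgeR, where 2360 of the 16330 tested genes did. At these shares, few or no calls are to be looked for among 9 genes. The log2 fold changes of the 9 genes (Setd1a+/- minus WT) lay between -0.02 for Shank1 and 0.05 for Shank2, with SE of 0.03 to 0.06 and adjusted p of 0.783 to 0.994. The 95% confidence intervals of Dlg1 and Dlg3 were narrowest, -0.04 to 0.07 and -0.04 to 0.07, and that of Shank2 reached furthest from 0, -0.06 to 0.17. The median of the 9 genes was 0.02, against 0.001 over all tested genes. For the age by genotype interaction, 0% of all tested genes were called by edgeR, where 1098 had an unadjusted p under 0.05. Among these was 1 scaffold, Dlg4, with an edgeR adjusted p of 0.557.

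At single ages none of the 9 genes was called for genotype by edgeR, limma-voom or DESeq2, where 0.129% of all tested genes were called at E14 (0.0245% higher, 0.104% lower), 0.11% at E18 (0.0429% and 0.0674%), 0.735% at P7 (0.0122% and 0.723%), 0% at P35 and 0.233% at P70 (0.0122% and 0.22%). The ranges of RPKM of the 2 genotypes overlapped for every scaffold at every age. How often they overlapped over all tested genes was not counted, so this does not set the scaffolds apart. At P35 the log2 fold changes lay between -0.07 and 0.05 and at P70 between -0.05 and 0.10. At E14, 8 of the 9 were negative (median -0.11, against -0.03 over all tested genes), and at E18, 8 of the 9 were positive (median 0.13, against 0.02). The 9 genes were measured in the same libraries and are not independent of each other, and leaving out the 2 libraries with Xist counts moved the E14 values of 7 of the 9 further below 0 (not Dlg1 and Homer2, then at 0.06 and 0.03), for Shank1 from -0.24 (SE 0.13, adjusted p = 0.520) to -0.39 (SE 0.12, adjusted p = 0.0438), where 4.85% of all tested genes were called. Shank1 at E14 had 34.6, 41.4, 31.2, 25.1 and 16.8 RPKM in WT replicates 1 to 5 and 27.2, 27, 28.9, 23.3 and 19.8 RPKM in Setd1a+/- replicates 1 to 5. The WT libraries spread more widely than the Setd1a+/- libraries and enclosed all of them. The neuronal marker sums spread likewise, 31.0 to 51.6 RPKM in WT and 35.3 to 46.8 RPKM in Setd1a+/-, and the summed level of the choroid plexus markers spread from 0.0506 to 315 RPKM and from 0.295 to 372 RPKM. The summed level of 3 endothelial markers (Cldn5, Pecam1 and Flt1) was 27.1 to 36.5 RPKM in WT and 25.4 to 170.3 RPKM in Setd1a+/- at E14, with the highest value in Setd1a+/- replicate 2. At E18 it was 47.1 to 123.4 RPKM in WT and 37.7 to 47.5 RPKM in Setd1a+/-. The choroid plexus sum at E18 was 189.2 and 151.2 RPKM in WT replicates 3 and 4, 0.989 to 5.66 RPKM in the other WT libraries and at most 1.42 RPKM in Setd1a+/-. The summed level of 3 erythroid markers at E14 was 303 to 485 RPKM in WT replicates 1 to 4, 1004.5 RPKM in WT replicate 5 and 247 to 940 RPKM in Setd1a+/-, where 4 of the 5 libraries were above WT replicates 1 to 4. The part of these markers in the genotype values at E14 and E18 was not tested.

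**Figure D4:**
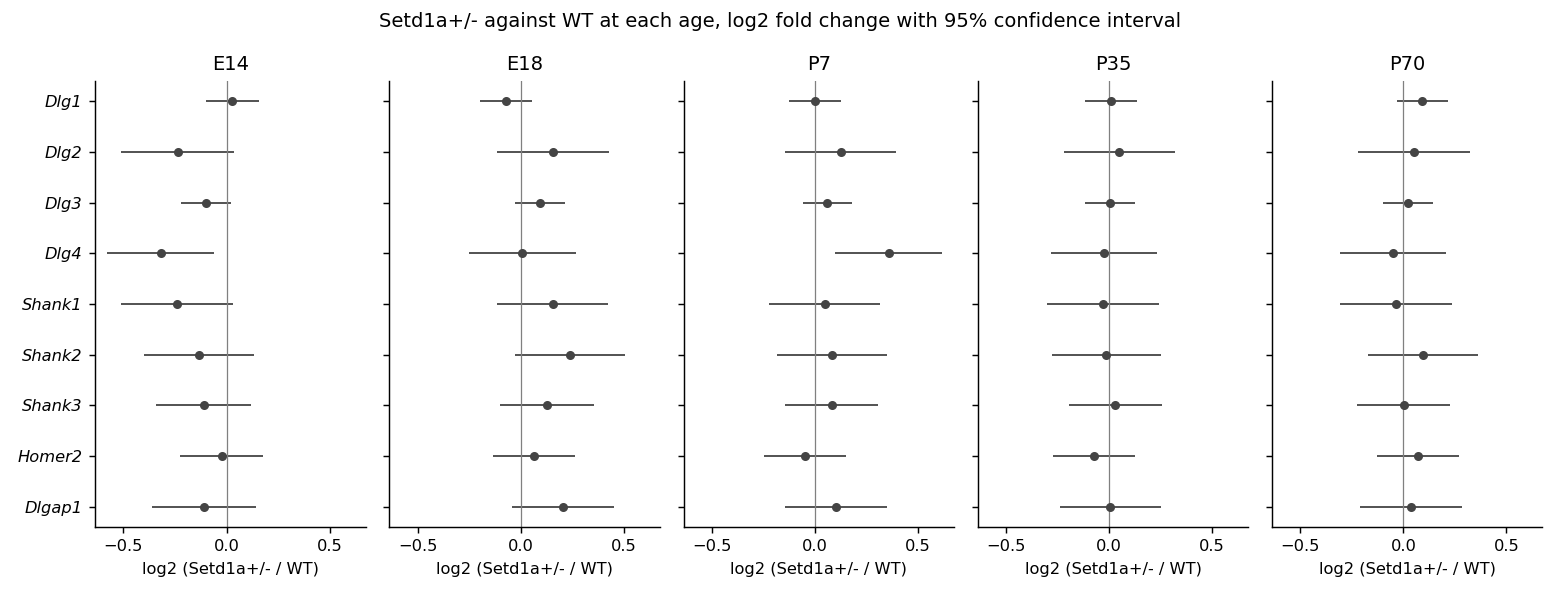
Log2 fold change of each scaffold gene in Setd1a+/- against WT at each age (horizontal axis), with its 95% confidence interval from the 10-group fit. The intervals of all genes include 0 except those of Dlg4 at E14, -0.58 to -0.06, and at P7, 0.10 to 0.61, and no value passed the adjusted threshold.

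Dlg4 gave the largest single-age values, and these rested on few libraries. At P7 its level was 59.7, 36.2, 32.9, 31.2 and 60.7 RPKM in WT replicates 1 to 5 and 57.5, 53.6, 58.9, 56.9 and 55.8 RPKM in Setd1a+/- replicates 1 to 5. WT replicates 1 and 5 stood above every Setd1a+/- library and the other 3 below every one, so the WT mean of 44.2 ± 14.8 RPKM (SD, n = 5) described no single library. The log2 fold change for genotype at P7 was 0.36 (SE 0.13, adjusted p = 0.269). At E14 the level in Setd1a+/- replicates 1 to 5 was 20.9, 12.1, 22.0, 19.7 and 17.4 RPKM, with replicate 2 lowest, and the log2 fold change was -0.32 (SE 0.13, adjusted p = 0.258).

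The genes next to Dlg4 on chromosome 11 were read in the same libraries. For each library, the log2 CPM of a gene was set against the median of the 9 other libraries of its age. In WT replicates 3 and 4 at P7 and Setd1a+/- replicate 2 at E14, the 5 tested genes directly upstream of Dlg4 were low together with it. These are Ctdnep1, Gabarap, Phf23, Dvl2 and Acadvl, which start 35.8, 25.8, 21.2, 16.3 and 6.76 kb before it and encode proteins of unlike function, among them Gabarap, a protein of autophagy and GABA-A receptor trafficking, and Acadvl, an enzyme of mitochondrial fatty acid oxidation. In WT replicate 3 at P7, Dlg4 stood at -0.79 and the 5 genes at -0.62, -1.0, -0.65, -1.04 and -1.04. The mean deviation of the 5 neighbours was -0.92 to -0.87 in these 3 libraries and -0.09 to 0.12 in the other 47.

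The run of low genes had a near edge on one side. Elp5, the next tested gene beyond Ctdnep1, stood at -0.02, -0.05 and -0.20 in WT replicates 3 and 4 at P7 and Setd1a+/- replicate 2 at E14, within its range of -0.25 to 0.15 in the other libraries. Ybx2, a gene of low level beyond Elp5, stood at 0.13 and -0.17 in the libraries at P7 and at -0.97 in that at E14, where the others ranged from -0.57 to 0.87. On the other side of Dlg4 the next tested gene was Asgr1, whose mean log2 CPM of 0.06 was too low for it to show where the run ends. The 6 genes span chr11:69981156-70047522. The run is present in libraries of both genotypes and at 2 ages, the neighbours were chosen after their values were seen, and its cause was not tested. WT replicate 2 at P7, the remaining library with low Dlg4 (-0.65), was not low in the neighbours, which stood between -0.03 and 0.28, and it was the library with the choroid plexus markers, which was also the lowest WT library of its age for 7 of the other 8 scaffolds, Homer2 being the exception. For the other 8 scaffolds, no tested neighbour directly beside the gene was lower together with it by 0.5 or more in these 3 libraries. In other libraries this occurred for Shank3 with Acr (WT and Setd1a+/- replicates 5 at E14), Dlgap1 with Akain1 (WT replicate 5 at E14) and Shank1 with 1700008O03Rik (WT replicate 2 at P7), the last sharing exonic bases with Shank1.

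**Figure D5:**
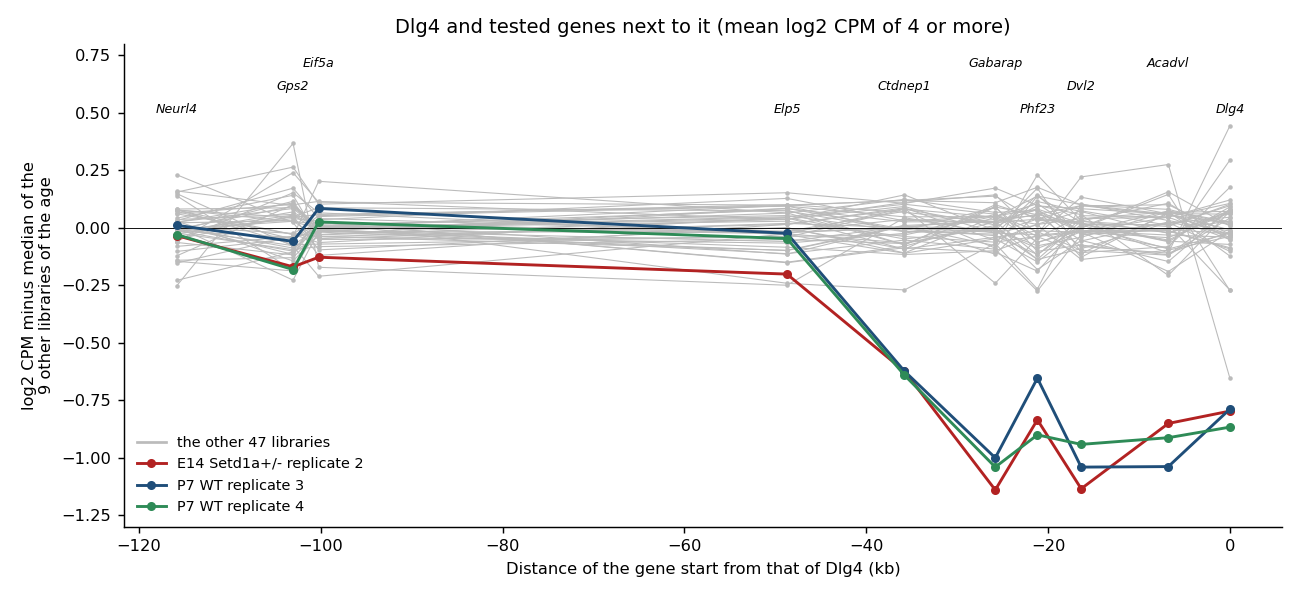
Log2 CPM of Dlg4 and of tested genes upstream of it, as the difference from the median of the 9 other libraries of the age (vertical axis), by distance of the gene start from that of Dlg4 in kb (horizontal axis), with 1 line per library. Genes with a mean log2 CPM under 4 are left out. In 3 coloured libraries the 6 genes from Ctdnep1 to Dlg4 lie at -0.62 or below, while Elp5 and the plotted genes beyond it lie among the other 47 libraries in grey.

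Without these 3 libraries, the genotype difference of Dlg4 at P7 went from 0.36 to 0.12 (SE 0.10, adjusted p = 0.673), and at E14 from -0.32 to -0.20 (SE 0.10, adjusted p = 1). At E14 it was called, with -0.41 (SE 0.13, adjusted p = 0.0459), without the 2 libraries with Xist counts and WT replicate 2 at P7, where 7.11% of all tested genes were called. Leaving out WT replicate 2 at P7 as well turned the difference at P7 to -0.09 (SE 0.09, adjusted p = 1). Leaving out a WT library with the higher level had the opposite result, since Dlg4 was called at P7 without WT replicate 1 (0.49, adjusted p = 0.0451) or WT replicate 5 (0.50, adjusted p = 0.0316), where 0.871% and 1.21% of all tested genes were called. The steps in WT moved too. From E14 to E18 the value of 0.23 stayed but passed the test without the 3 libraries (SE 0.09, adjusted p = 0.0275) and without those and WT replicate 2 at P7 (SE 0.07, adjusted p = 0.0050). The rise of Dlg4 from E18 to P7 was 0.72 (SE 0.13) with all libraries, 0.96 (SE 0.10) without the 3 libraries and 1.16 (SE 0.09) without those and WT replicate 2, and the rise from P7 to P35 was 0.70 (SE 0.13), 0.46 (SE 0.11) and 0.25 (SE 0.09), with each of these 6 values called. In Setd1a+/- cortex, in which no library at P7 was low, the same steps were 1.07 (SE 0.13, adjusted p = 1.03e-09) and 0.32 (SE 0.13, adjusted p = 0.0274, a call that was lost as described above).

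The ratio of Dlg4 to Dlg3 was followed because both encode PDZ scaffolds of NMDA receptors, Dlg3 being prominent early in development. In WT it was 1.24 ± 0.11 at E14 and 1.34 ± 0.12 at E18, spread widely at P7 with 1.42 ± 0.45, and was 1.84 ± 0.07 at P35 and 1.87 ± 0.11 at P70 (SD, n = 5 each). None of the 4 steps in WT passed a two-sided exact permutation test of the mean log2 ratio after adjustment over the 9 ratio tests (adjusted p = 0.274 to 0.897). The smallest p that 5 against 5 libraries allow is 0.0079, which alone adjusts to 0.0714, so that a single step could not have passed. The low libraries of Dlg4 enter this ratio directly. Without the 3 libraries, the step from E18 to P7 in WT had a difference in mean log2 ratio of 0.35 (exact permutation p = 0.0357, adjusted p = 0.321), in place of 0.02. These libraries were left out after their low Dlg4 was seen, and Dlg4 is the numerator of the ratio. That p can therefore not decide whether the ratio changed over the step. In Setd1a+/- libraries the ratio was 1.74 ± 0.08 at P7 and 1.80 ± 0.02 at P35. No difference between genotypes in the ratio passed the same test, which a single age could not have passed either, with differences in mean log2 ratio from -0.23 at E14 to 0.35 at P7 and adjusted p of 0.274 to 0.469 (exact permutation).

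Genes that work beside the scaffolds were grouped in 8 lists of 68 genes in all. In WT, 48 of the 68 were called higher and 6 lower from E14 to E18, 51 higher and 3 lower from E18 to P7, 40 higher and 15 lower from P7 to P35, and 1 lower from P35 to P70 (Grip1, -0.31), against the shares of all genes given above. The closest relatives of the scaffolds split from P7 to P35, where 3 of 6 rose and 2 fell. Homer1, the major neuronal Homer, rose by 1.52 (SE 0.16) and Dlgap2 by 1.5 (SE 0.15) on the log2 scale, while Dlg5, a relative of the Dlg genes with a role in epithelial polarity, fell, with a log2 fold change of -1.34 (SE 0.07). From P35 to P70 Homer1 was called in Setd1a+/- (0.78, SE 0.16, adjusted p = 0.0030) and not in WT (0.39, SE 0.16, adjusted p = 0.293), and the difference of these steps was not called (0.39, SE 0.22).

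Over the step from P7 to P35, in which 32.6% of all tested genes rose and 34.3% fell, the other lists divided as follows. Among 15 signalling proteins of the postsynaptic density, 10 rose and 1 fell, led by Camk2a, the major kinase of the structure (2.28, SE 0.15), Kalrn (1.73, SE 0.10) and Sipa1l1 (1.64, SE 0.10). Of 8 proteins that link the lattice to actin, 6 rose and 2 fell, Synpo by 1.71 (SE 0.24), Baiap2 by 1.55 (SE 0.11) and Ppp1r9a by 1.2 (SE 0.07) in the upward direction. Of 11 glutamate receptor subunits and auxiliary proteins bound by the scaffolds, 7 rose and none fell, with the largest values for Grin2a (2.12, SE 0.18), the NMDA receptor subunit of mature synapses, Gria3 (1.73, SE 0.09) and Cacng3 (1.47, SE 0.18). Of 8 adhesion molecules of the postsynaptic side, 3 rose and 4 fell, the largest values being those of Lrrc4c (0.52, SE 0.10), Lrrc4 (0.51, SE 0.10) and Lrrc4b (-0.42, SE 0.07). Of 10 other PDZ scaffolds, 5 rose and 3 fell, with Grip1 at -1.27 (SE 0.08), Mpp2 at 1.24 (SE 0.08) and Lin7a at 1.02 (SE 0.14). Of 8 scaffolds of the presynaptic active zone, 5 rose and 3 fell, with Erc1 at -1.72 (SE 0.08), Rims1 at 1.05 (SE 0.12) and Bsn at 0.96 (SE 0.13). Of 2 scaffolds of inhibitory synapses, 1 rose and none fell.

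For genotype with age as a covariate, 1 of the 68 was called, against 4.43% of all tested genes. This was Pick1, a PDZ protein that binds AMPA receptor subunits, which was lower in Setd1a+/- (log2 fold change -0.10, SE 0.02, adjusted p = 0.0011). None of the 68 was called for genotype at a single age, where 0% to 0.735% of all tested genes were, or for the interaction, where 0% were.

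The genes whose log2 CPM followed each scaffold most closely over the 25 WT libraries were listed as a description, since the 25 libraries share 5 ages. The part of age in the correlations was not measured. For Dlg2 the closest were Camk2b (Pearson r = 0.995), Arhgap20 (0.994) and Camkv (0.994), with r of 0.996, 0.988 and 0.997 over the 25 Setd1a+/- libraries. Shank3 was followed by Myrip (0.996) and Prrt2 (0.995), and Dlg3 by Camkk2 (0.992), Pim2 (0.991) and Ap2a1 (0.990). For Shank2 they were Arrb1, Bin1 and Cdc42bpa (0.984 to 0.986), for Shank1 Mib2, Unc13a and Cep170b (0.972 to 0.979), for Dlgap1 Reps2, Pianp and Rtn4r (0.988 to 0.993) and for Dlg1 Efhd2, Epop and Fgfr1op2 (0.986 to 0.988). The closest to Dlg4 were Cdk14, Rims2 and Dact3 (0.964 to 0.966), and Homer2 had the lowest values, with Kank1 (0.947), C1ql1 (0.936) and Slc9a3 (0.934). Among the scaffolds themselves, Dlg3 and Shank3 had the highest r, 0.973, and Dlg1 and Dlg2 the lowest, 0.401.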

How the data were processed

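Fragments were trimmed (Trimmomatic), aligned to GRCm38 (STAR) and counted on exons of Ensembl genes (featureCounts 1.4.6-p2, no strand, a fragment over several genes counted for each) by the authors, and the deposited values are raw counts, from 35507165 to 43907318 per library. Protein-coding genes were kept by edgeR's filterByExpr (a minimum count of 10, smallest group 5), scaled by TMM and fitted by quasi-likelihood in edgeR 4.0.16 (R 4.3.3), with age and genotype or with the 10 groups. A gene was called where its Benjamini-Hochberg adjusted p was below 0.05. For log2 CPM a prior of 2 counts was added. The study's own fit used limma. The edgeR contrasts were tested on simulated counts. The labels give no litters, so p-values measure the spread between these mice. The 9 genes, the lists and the named genes (for each list the 3 with the largest change from P7 to P35 in WT and any called for genotype) were chosen with earlier results of these data known. Alternatives were other scalings (library size, DESeq2 size factors) and filters, all genes, limma-voom 3.58.1, DESeq2 1.42.0, RNA integrity as a covariate, a replicate block and leaving out each library, and, chosen after seeing the data, leaving out the libraries named in the text and the contrast of steps between genotypes. Same-numbered libraries of the 2 genotypes did not deviate together at every age and number (correlations of -0.20 to 0.46), so the numbers were not taken as pairs. Promoter sequences are from RefSeq, and no protein sequence was used here. Some items of the lists are not reported here. Figures were drawn with matplotlib.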

Additional observations from a re-analysis of the deposited data

Results flagged for a closer look

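Each group of 5 libraries was checked for a lowest or highest RPKM set apart from the other 4 by more than chance gives in about 1 of 20 groups. Of 90 groups, 7 held such a library, where chance alone gives about 4.5. Of the 7, 5 were WT replicate 2 at P7, the library with choroid plexus markers, and in each it was lowest. It had 16.5 RPKM of Dlg2 (the others 23.7 to 24.6), 25.7 RPKM of Dlg3 (31.3 to 33.2), 40.7 RPKM of Shank1 (59.3 to 64.6), 16.5 RPKM of Shank2 (24.4 to 26.2) and 21.8 RPKM of Shank3 (28.2 to 29.6). Its neuronal marker sum was also the lowest of its group, 164.1 RPKM. The summed level of 3 astrocyte markers (Aqp4, Gfap and Aldh1l1) was 133.4 RPKM in it, against 58.1 to 70.1 RPKM in the 9 other libraries of P7. Not every marker sum that stood apart in this library is given here, and the part of these other cell types in its values was not tested. Without it, all 9 genes were still called higher from E18 to P7 in WT and 5 from P7 to P35. With all libraries, 10989 and 10939 of the 16330 tested genes were called in these steps in either direction. The counts of all genes without it are not given here. The remaining flags were Dlg3 in Setd1a+/- replicate 3 at E18, with 20.1 RPKM against 21.6 to 22.0, and Shank2 in Setd1a+/- replicate 5 at P70, with 20.7 RPKM against 26.3 to 28.05.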

How the results depend on the processing

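With age as a covariate, no scaffold was called for genotype under any of the 63 alternatives, and over the 5 single ages 8 of 2835 values were called where the reported one was not. The count of scaffolds called at E14, reported as 0, was 1 without the 2 libraries with Xist counts (Shank1, with 4.85% of all tested genes called), 4 without those and WT replicate 2 at P7 (Dlg2, Dlg3, Dlg4 and Shank1, with 7.11%), and 0 to 1 on leaving out single libraries, the 1 being Shank1 without WT replicate 5 (with 4.55%). At P7 it was 0 to 1 on leaving out single libraries, the 1 being Dlg4. With a replicate block it stayed at 0 with age as a covariate and at each age, while the count over all genes went from 120 to 20 at P7 and from 18 to 37 at E18. The summed RPKM of the Dlg genes in WT, reported as 63.4 at E18, 150.2 at P35 and 147.2 at P70, was 67.3, 144 and 139.6 with scaling by library size only. Of 2196 values of age steps in WT, 10 lost and 13 gained a call, and in Setd1a+/- 40 lost and 7 gained one, 38 of the losses being Homer2 from E14 to E18 (adjusted p = 0.0485 as reported). No called value changed its direction. Over all tested genes the counts moved more. That for genotype, 723 with age as a covariate, ranged from 585 to 828, while 21 at E14 ranged from 1 to 1164, 18 at E18 from 7 to 151 on leaving out single libraries, 120 at P7 from 1 to 376, 0 at P35 from 0 to 11, 38 at P70 from 7 to 92 and 0 for the interaction from 0 to 48. From P35 to P70, 173 in WT ranged from 46 to 299, and 487 in Setd1a+/- rose to 1030 without Setd1a+/- replicate 5 at P70. For the difference of the E14 to E18 step between genotypes, 185 ranged from 0 to 1963. The causes were not tested.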
